A study of Mus musculus with 2 samples.

Results

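The genes described here are 42 that set the pace of the cell cycle at its checkpoints: 13 cyclins, 5 cyclin-dependent kinases (Cdks), 7 genes of Cdk inhibitors and of the Cdk phosphatase *Cdkn3*, the 3 pocket proteins, 8 E2f transcription factors, p53 with its ubiquitin ligase *Mdm2*, and the 3 Cdc25 phosphatases with the kinase *Wee1*. They were taken as a list of named genes, drawn up with earlier results of these data known, out of 20250 protein-coding genes in the table. Total RNA was sequenced, at about 90 M single-end reads a library, from 1 library of pre-pro-B cells and 1 library of pro-B cells of C57BL/6 mice. The pre-pro-B cells were *Ebf1* -/-, came from female fetal liver and were kept with Il-7 (5 ng/mL), Scf (10 ng/mL) and Flt3l (10 ng/mL). The pro-B cells were *Rag2* -/-, came from the bone marrow of adult males and were kept with Il-7 (5 ng/mL) but without Scf or Flt3l. Both were cultured on OP-9 cells, a mouse stromal cell line that supports lymphoid growth. Stage, genotype, sex, age, tissue of origin and cytokines thus differed together between the libraries and cannot be told apart. The deletions hold each population at its stage, so neither library stands for unmanipulated cells of a mouse.

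Cyclins have no catalytic activity of their own and act by binding and activating Cdks. D-type cyclins with Cdk4 or Cdk6 respond to growth signals in G1 and phosphorylate the pocket proteins Rb1, Rbl1 (p107) and Rbl2 (p130), which release E2f factors and thereby the genes of DNA replication. Cyclins E and A with Cdk2 then drive S phase, cyclins A and B with Cdk1 drive mitosis, INK4 and Cip/Kip proteins inhibit the kinases, and Cdc25 phosphatases and Wee1 remove and add the inhibitory phosphate on Cdk1 and Cdk2. In early B cells, Il-7 is the main growth signal, and cyclin D3 is the D cyclin known to be needed for the expansion of B cell precursors.

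Levels are given as FPKM (fragments counted per kilobase of transcript and scaled for depth), summed over the RefSeq transcripts of a gene, so that genes of different length can be set side by side. Differences are log2((pro-B FPKM + 1)/(pre-pro-B FPKM + 1)), and a gene was called higher or lower at 2-fold on this scale, which understates the change of genes with low FPKM. With 1 library per cell type no difference has a replicate check, no test could be made, and each difference is one between these libraries. The authors' Cuffdiff output gives each transcript a 95% interval, which comes from a model of the reads and does not cover variation between cultures. In cultures of many cells, a smaller share of cycling cells cannot be told apart from less RNA per cell.

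Of the 42 genes, 21 were higher in the pro-B library, 3 were lower (*Ccnd1*, *Cdk6* and *E2f6*) and 18 lay within 2-fold. Among the 10528 genes that reached an FPKM of 1 in either library, 12.2% were higher and 19.1% were lower. The median log2 difference of the 42 genes was 1.04, against -0.14 for those 10528 genes. The sign was positive for 33 of the 42 and negative for 9. Among those 10528 genes it was positive for 4489 and negative for 6039. Only *Cdkn2b* and *Cdkn2d*, both counted in the 33, stayed under an FPKM of 1 in both libraries. The intervals of the libraries lay apart for 1 transcript of the 42 genes with pro-B cells above (*Cdkn2c*) and for 1 with pre-pro-B cells above (*Cdk6*), where 1.40% and 3.01% of the 12875 transcripts that reached an FPKM of 1 in either library did so in these directions. The intervals of all the other members overlapped.

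**Figure D1:**
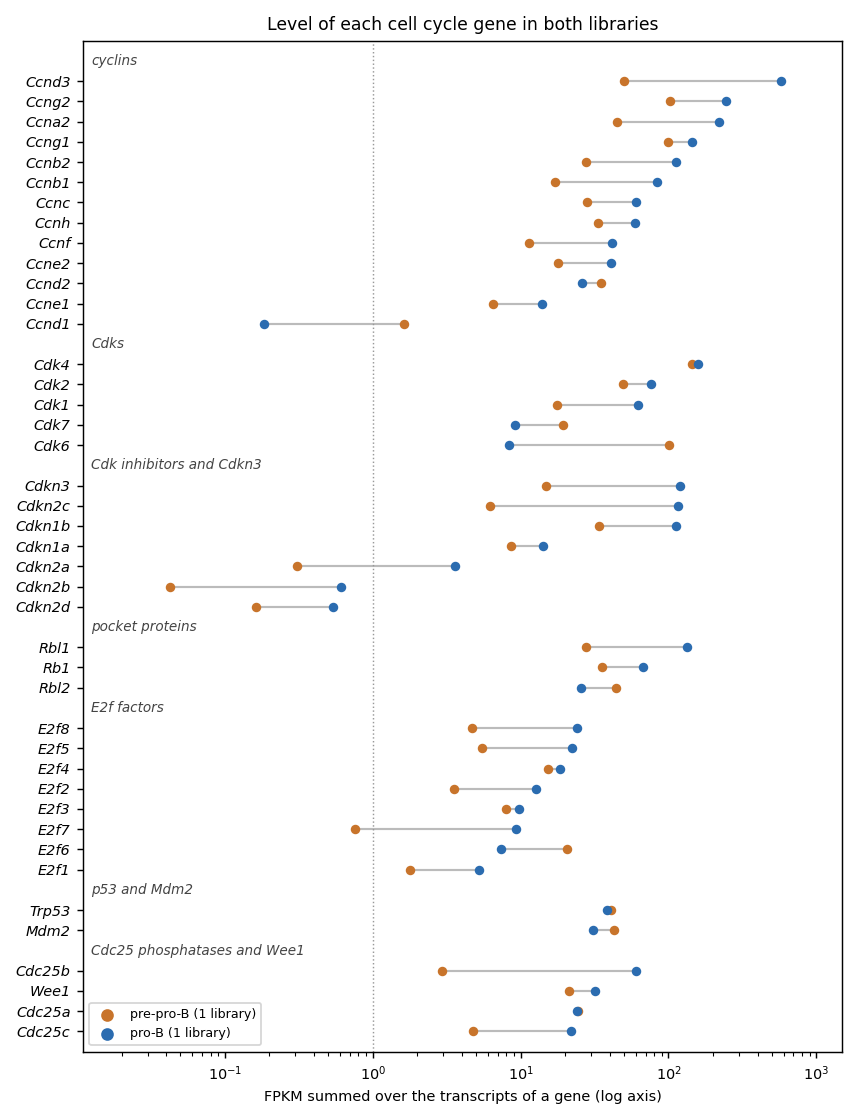
FPKM of each of the 42 genes in the pre-pro-B library (orange) and the pro-B library (blue), by role, on a log axis; the grey line joins the 2 values of a gene and the dotted line marks an FPKM of 1. Pro-B points lie to the right for 33 genes, and the long lines that run the other way are those of *Ccnd1* and *Cdk6*.

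In the pro-B library the D cyclins consisted almost wholly of cyclin D3. *Ccnd3* had an FPKM of 50.1 in the pre-pro-B library and 577 in the pro-B library, a log2 difference of 3.50, and moved from rank 1404 to rank 48 among all genes. *Ccnd2* had an FPKM of 34.9 and 26.2 in the same order, within 2-fold. *Ccnd1* was low in both, at 1.62 and 0.184, a log2 difference of -1.15, and its call as lower was lost with a pseudocount of 5 (-0.35). Of the summed FPKM of the D cyclins, which was 86.6 in the pre-pro-B library and 603 in the pro-B library, *Ccnd3* made up 57.9% and 95.6% and *Ccnd2* 40.3% and 4.34%. The ratio of *Ccnd3* to *Ccnd2* was therefore 1.44 in the pre-pro-B library and 22.04 in the pro-B library. Within each library the intervals of *Ccnd2* and of the most abundant *Ccnd3* transcript overlapped. In Cuffdiff's output *Ccnd3* stands in 1 locus with the neighbouring gene *Bysl*, as *Ccna2* does with *Exosc9*, *Ccne2* with *Ints8* and *E2f5* with *Rbis*.

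Of the kinases they bind, *Cdk6* was lower and *Cdk4* was not. *Cdk4* had nearly equal levels, 145 in the pre-pro-B library and 158 in the pro-B library. *Cdk6*, which also acts in blood stem and progenitor cells, had an FPKM of 100 (interval 22.1 to 179) in the pre-pro-B library and 8.39 (interval 0.112 to 16.9) in the pro-B library, a log2 difference of -3.43 and a ratio of 12.0. It went from rank 497 to rank 6152. The ratio of *Cdk4* to *Cdk6* was 1.44 in the pre-pro-B library and 18.9 in the pro-B library. The share of *Cdk6* in their sum was 41.0% and 5.03%. Within each library the intervals of *Cdk4* and *Cdk6* overlapped. The sum of the D-cyclin kinases was 245 in the pre-pro-B library and 167 in the pro-B library, while that of the D cyclins was 6.96 times as high in the pro-B library.

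The INK4 inhibitors bind Cdk4 and Cdk6 and keep D cyclins off them. *Cdkn2c*, which encodes p18Ink4c, had an FPKM of 6.22 (interval 0.143 to 12.3) in the pre-pro-B library and 116 (interval 26.1 to 206) in the pro-B library, a log2 difference of 4.02. It moved from rank 7399 to rank 491. *Cdkn2b* (p15Ink4b) had values of 0.0423 and 0.607 and *Cdkn2d* (p19Ink4d) of 0.162 and 0.539, both too low for a call. Together with p16Ink4a from *Cdkn2a*, the INK4 transcripts summed to 6.73 in the pre-pro-B library and 118 in the pro-B library, of which *Cdkn2c* made up 92.4% and 98.6%. In the pro-B library the transcripts of the inhibitor *Cdkn2c* were thus 13.8 times as abundant as those of *Cdk6*, and in the pre-pro-B library *Cdk6* transcripts were 16.1 times as abundant as those of *Cdkn2c*.

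*Cdkn2a* encodes 2 proteins from separate first exons, p16Ink4a and p19Arf, of which p19Arf inhibits Mdm2 rather than a Cdk. Its RefSeq transcripts NM_001040654 and NM_009877 have the lengths, 850 and 929 bases, of the annotated mm9 transcripts that start at positions 88928096 and 88940523 of chromosome 4 on the minus strand, which are those of p16Ink4a and p19Arf. The p16Ink4a transcript had an FPKM of 0.308 in the pre-pro-B library and 0.513 in the pro-B library, low in both. The p19Arf transcript was at 0.000253 in the pre-pro-B library, under the 0.0359 that 3 fragments would give at the depth of the library, and at 3.08 (interval 0 to 8.86) in the pro-B library. The call of *Cdkn2a* as higher, with summed values of 0.308 and 3.60, was thus carried by p19Arf, and it did not hold with a pseudocount of 5 (log2 difference 0.70).

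**Figure D2:**
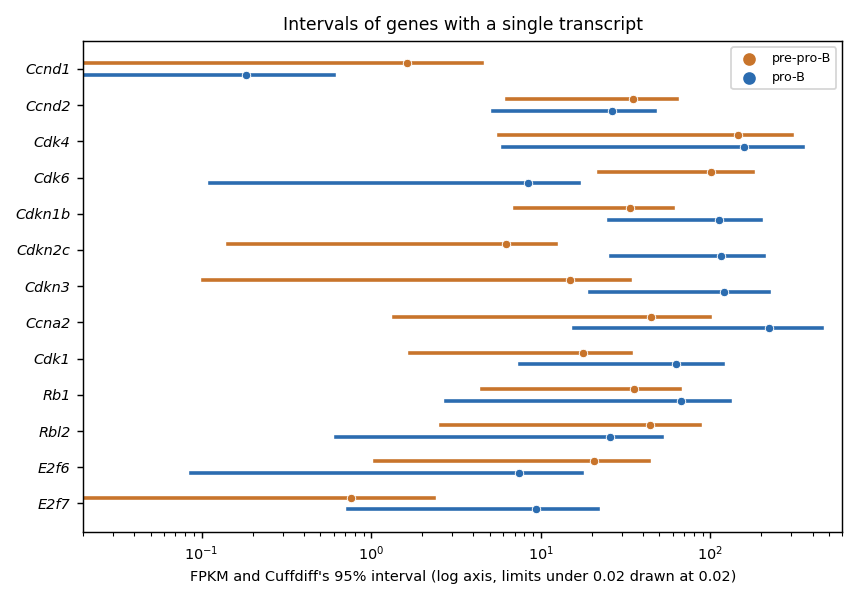
FPKM (points) and Cuffdiff's 95% intervals (bars) of 13 genes with a single RefSeq transcript in the pre-pro-B library (orange) and the pro-B library (blue), on a log axis with limits under 0.02 drawn at 0.02. The bars of *Cdk6* and of *Cdkn2c* are apart, in opposite directions, and those of the other genes overlap.

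Among the Cip/Kip inhibitors, which bind cyclin-Cdk complexes as a whole, *Cdkn1b* was higher and *Cdkn1a* lay within 2-fold. *Cdkn1b* (p27Kip1), known for holding cells in G1, had an FPKM of 33.7 (interval 7.05 to 60.3) in the pre-pro-B library and 112 (interval 25.2 to 199) in the pro-B library, a log2 difference of 1.70. *Cdkn1a* (p21Cip1) had values of 8.56 and 14.2. *Cdkn3*, which encodes a phosphatase that removes the activating phosphate from Cdks, had an FPKM of 14.9 in the pre-pro-B library and 120 in the pro-B library, a log2 difference of 2.93. Of the 7 inhibitor and *Cdkn3* genes, 4 were higher, 0 were lower and all 7 had a positive sign, with a median of 1.70. The 7 include *Cdkn2b* and *Cdkn2d*, which were too low for a call. Cyclin D3 and the inhibitors p18Ink4c and p27Kip1 were accordingly all at higher transcript levels in the same library.

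Of the E cyclins, which start S phase, *Ccne2* was called higher. It had an FPKM of 17.9 in the pre-pro-B library and 41.1 in the pro-B library, a log2 difference of 1.16. *Ccne1* had values of 6.53 and 13.997, a log2 difference of 0.99 that fell just short of the call and passed it with a pseudocount of 0.1 (1.09) and with median-ratio scaling (1.10). The shares of the E cyclins in their sum were nearly equal between the libraries, with *Ccne2* at 73.2% and 74.6%. Their kinase *Cdk2* had values of 49.5 and 76.0, within 2-fold.

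The A and B cyclins and *Cdk1* were called higher. *Ccna2*, whose cyclin serves S phase and mitosis, had an FPKM of 44.8 in the pre-pro-B library and 221 in the pro-B library, a log2 difference of 2.27. *Ccnb1* had values of 17.2 and 83.0 (2.21) and *Ccnb2* of 27.9 and 113 (1.98), the B cyclins being the partners of Cdk1 in mitosis. Their summed level was 89.8 in the pre-pro-B library and 416 in the pro-B library, a ratio of 4.63, while the make-up of the sum was nearly kept, with *Ccna2* at 49.9% and 52.99%. *Cdk1* itself had an FPKM of 17.7 (interval 1.70 to 33.8) and 62.3 (interval 7.53 to 119), a log2 difference of 1.76. *Ccnf*, a cyclin that binds no Cdk and is part of a ubiquitin ligase, had values of 11.3 and 41.3 (1.78). Of the 5 Cdks among the 42 genes, *Cdk1* was thus the 1 called higher and *Cdk6* the 1 called lower.

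Transcription of mitotic genes is known to depend on a cell cycle homology region (CHR, the letters TTTGAA) and on CCAAT boxes, and that of G1/S genes on E2F sites (searched here as TTTNGCGC), each on either strand. The 140 bases before the start of 3 genes that were higher are shown, from RefSeq on GRCm38.p6, 5′ to 3′ on the strand of the gene, with matches to these letters in capitals (*Cdk1*, chr10:69352913-69353052, minus strand; *Ccnb2*, chr9:70421555-70421694, minus strand; *Cdkn3*, chr14:46760401-46760540, plus strand).
Cdk1: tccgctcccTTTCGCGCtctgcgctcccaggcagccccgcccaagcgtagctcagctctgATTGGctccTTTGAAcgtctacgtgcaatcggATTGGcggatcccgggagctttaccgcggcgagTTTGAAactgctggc
Ccnb2: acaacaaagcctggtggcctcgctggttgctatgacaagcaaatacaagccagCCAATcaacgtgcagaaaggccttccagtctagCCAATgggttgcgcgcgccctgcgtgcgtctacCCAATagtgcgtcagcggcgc
Cdkn3: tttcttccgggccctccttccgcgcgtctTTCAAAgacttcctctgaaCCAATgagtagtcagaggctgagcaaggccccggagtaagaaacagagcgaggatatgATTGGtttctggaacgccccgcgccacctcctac
The *Cdk1* stretch holds an E2F-type match that begins 131 bases before the start, CHR-type matches at 71 and 15 bases, and CCAAT boxes at 80 and 48 bases. That of *Ccnb2* holds 3 CCAAT boxes at 87, 54 and 21 bases. *Ccnb2* also has CHR-type matches outside the stretch shown, which begin 167 bases before and 4 bases after the start. The *Cdkn3* stretch holds a CHR-type match at 111 bases and CCAAT boxes at 92 and 34 bases. These are matches of letters in a window and not shown to be sites in these cells.

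The Cdc25 phosphatases, which activate Cdks by removing the phosphate that Wee1 adds, differed from gene to gene. *Cdc25a*, which acts at the start of S phase, was equal, at 24.28 in the pre-pro-B library and 24.02 in the pro-B library. *Cdc25b*, which starts the activation of Cdk1 before mitosis, had an FPKM of 2.93 and 60.1, a log2 difference of 3.96 and a ratio of 20.5, and moved from rank 8859 to rank 1167. *Cdc25c* had values of 4.79 and 22.1 (2.00). *Cdc25a* made up 75.9% of their summed FPKM in the pre-pro-B library and 22.6% in the pro-B library, and *Cdc25b* 9.16% and 56.6%. *Wee1*, which opposes them, had values of 21.4 and 32.0, within 2-fold.

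The make-up of the pocket proteins also differed. *Rbl1* (p107), which is made mainly in cycling cells, had an FPKM of 27.7 in the pre-pro-B library and 134 in the pro-B library, a log2 difference of 2.23. *Rb1* had values of 35.5 and 66.8 (0.89) and *Rbl2* (p130), the pocket protein of resting cells, of 44.0 and 25.6 (-0.76), both within 2-fold. The order of the 3 was *Rbl2*, *Rb1*, *Rbl1* from high to low in the pre-pro-B library and the exact reverse in the pro-B library, with overlapping intervals between neighbours in each library. *Rbl1* made up 25.8% and 59.2% of their sum and *Rbl2* 41.0% and 11.3%. *Rb1* shares its locus with *Lpar6*, which lies in an intron of *Rb1*, and *Rbl2* shares its locus with *Aktip*.

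**Figure D3:**
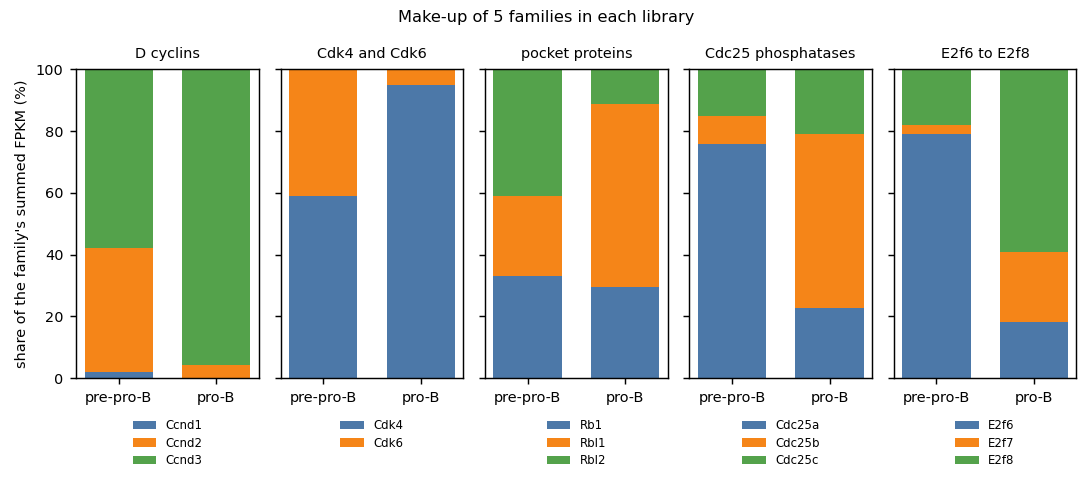
Share of each gene in the summed FPKM of its family (percent, from 0 to 100) in the pre-pro-B and pro-B libraries, for 5 families. *Ccnd3* went from 57.9% to 95.6%, *Cdk6* from 41.0% to 5.03%, *Rbl1* from 25.8% to 59.2%, *Cdc25b* from 9.16% to 56.6% and *E2f6* from 79.1% to 18.1%.

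Of the 8 E2f factors, 5 were higher, 1 was lower and 2 lay within 2-fold. Among the activators, *E2f1* had an FPKM of 1.77 in the pre-pro-B library and 5.23 in the pro-B library (1.17), a call lost with a pseudocount of 5 (0.60). *E2f2* had values of 3.52 and 12.8 (1.61). *E2f3* had values of 7.97 and 9.78, within 2-fold. By these values the most abundant activator was *E2f3* in the pre-pro-B library and *E2f2* in the pro-B library. The intervals of *E2f2* and *E2f3* overlapped in each library, so this order is not sure. The factors that mostly act with Rbl1 and Rbl2 showed the same split, since *E2f4* was near equal at 15.4 and 18.6 and *E2f5* had 5.48 and 22.4 (1.85).

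The repressor E2fs that need no pocket protein differed in opposite directions. *E2f6*, which recruits Polycomb proteins, was the most abundant E2f gene in the pre-pro-B library, with an FPKM of 20.7, and had 7.42 in the pro-B library, a log2 difference of -1.36. *E2f7* had values of 0.764 and 9.35 (2.55) and *E2f8* of 4.71 and 24.2 (2.14), atypical E2fs that are made in S phase and shut off E2f target genes. *E2f8* was the most abundant E2f gene in the pro-B library, close to *E2f5*, and the intervals of the first E2f genes overlapped in each library. Within the sum of these 3 genes, *E2f6* made up 79.1% in the pre-pro-B library and 18.1% in the pro-B library, and *E2f7* and *E2f8* together the rest.

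The stretches before *Rbl1* (chr2:157204535-157204674, minus strand) and *Cdc25a* (chr9:109875439-109875578, plus strand of GRCm38.p6) are shown because each holds an E2F-type match and, of the pair, *Rbl1* was higher in the pro-B library and *Cdc25a* was not. Capitals mark matches as above.
Rbl1: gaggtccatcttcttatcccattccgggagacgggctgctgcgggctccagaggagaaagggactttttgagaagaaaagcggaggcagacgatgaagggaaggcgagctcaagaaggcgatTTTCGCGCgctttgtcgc
Cdc25a: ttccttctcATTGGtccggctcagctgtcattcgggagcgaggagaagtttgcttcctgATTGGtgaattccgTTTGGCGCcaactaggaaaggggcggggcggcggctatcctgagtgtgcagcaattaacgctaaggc
The match begins 18 bases before the start of *Rbl1* and 67 bases before that of *Cdc25a*. RefSeq promoter windows, from 250 bases before to 50 bases after the start, were matched for 32 of the 42 genes. The E2F-type letters stood in 5 of these 32 (15.6%), namely *Cdc25a*, *Cdk1*, *Cdkn2a*, *E2f2* and *Rbl1*, and in 1.57% of all 27025 genes with a window. They stood in 3.13% of the 8581 genes with a window that reached an FPKM of 1 in either library. The CHR-type letters stood in 9 of the 32 (28.1%), against 20.2% of all and 14.2% of expressed genes. CCAAT boxes stood in 21 of the 32 (65.6%), against 41.1% of all and 43.4% of expressed genes. Of the 17 matched genes that were higher in the pro-B library, 4 held the E2F-type letters, 6 the CHR-type letters and 14 a CCAAT box, and of the other 15 matched genes 1, 3 and 7 did so.

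p53 and Mdm2 did not differ by 2-fold. *Trp53*, the gene of p53, had an FPKM of 40.7 in the pre-pro-B library and 38.2 in the pro-B library. *Mdm2*, whose product marks p53 for degradation and which p53 itself induces, had values of 42.8 and 31.0. *Ccng1*, a cyclin gene induced by p53, had 98.6 and 145, also within 2-fold. *Ccng2*, which is known to be induced when cells stop dividing, had 102 and 244 (1.25).

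Within the Cdk-activating kinase, *Cdk7* had a negative sign and its other subunits a positive one, all within 2-fold. *Cdk7*, the catalytic subunit, had an FPKM of 19.4 in the pre-pro-B library and 9.21 in the pro-B library, a log2 difference of -0.9998 that stayed just inside 2-fold and passed it with a pseudocount of 0.1 (-1.07) and with TPM scaling (-1.09). Its partner *Ccnh* had values of 33.4 and 59.6 (0.82), so the ratio of *Ccnh* to *Cdk7* was 1.72 and 6.47. *Cdk7* shares its locus with *Ccdc125*. *Ccnc*, the cyclin of the Mediator kinases, had values of 28.0 and 60.6 (1.09), a call that was lost with a pseudocount of 5 and with TPM scaling (0.99 each).

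For 9 of the 42 genes the table holds more than 1 RefSeq transcript. In *Ccnd3*, the difference lay mostly in NM_007632, which had an FPKM of 26.3 in the pre-pro-B library and 504 (interval 7.21 to 1197) in the pro-B library and made up 52.6% and 87.3% of the gene. In *Ccne2*, NM_009830 went from 44.4% to 72.0% of the gene, with an FPKM of 7.93 and 29.6, while NM_001037134 had 9.93 and 11.5. In *Trp53*, the shorter transcript NM_011640 had 34.5 and 36.6, and NM_001127233 had 6.21 and 1.59, so the signs of the pair were opposite. In *Cdkn1a*, NM_007669 had 6.87 and 13.3 and NM_001111099 had 1.68 and 0.966. *Rbl1* and *Cdc25b* differed with little shift between their transcripts, with NM_011249 at 56.2% and 51.4% of *Rbl1* and NM_001111075 at 80.6% and 78.2% of *Cdc25b*. Transcripts of 1 gene share most of their bases, and Cuffdiff divides their common reads by a model, so these shares are less sure than the gene sums.

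**Figure D4:**
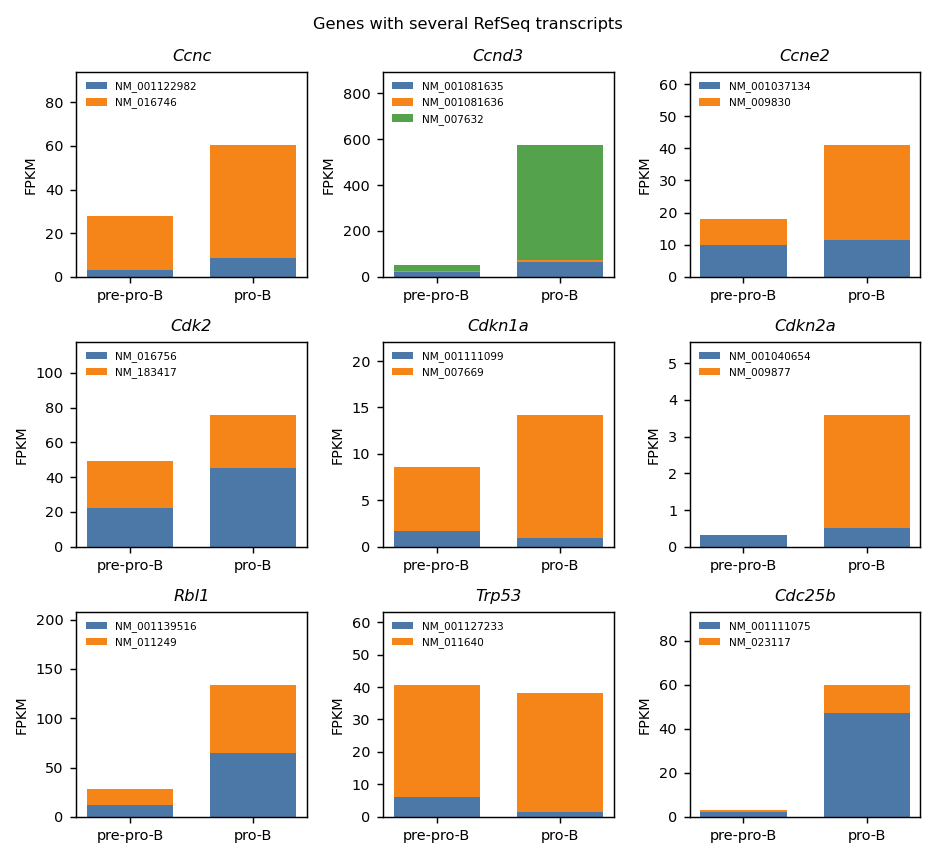
FPKM of each RefSeq transcript (stacked colours, from 0) of the 9 genes with several transcripts, in the pre-pro-B and pro-B libraries, each panel on its own scale. In *Ccnd3* nearly all of the pro-B bar is NM_007632 (504 of 577), and in *Cdkn2a* most of it is the p19Arf transcript NM_009877 (3.08 of 3.60).

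Other genes of the machinery were described from lists of known function. Of 28 further cyclins and Cdks, most of which serve transcription or other cells, 0 were higher and 1 was lower (*Cdk20*, 1.85 in the pre-pro-B library and 0.0485 in the pro-B library), with a median of -0.10. Of 19 partners and regulators of the cell cycle Cdks, 6 were higher, led by *Fbxo5* (17.0 and 76.5) and *Cdc20* (14.8 and 63.6), which restrain and activate the ubiquitin ligase that destroys cyclins. *Cdc14b*, a phosphatase that opposes Cdks, was the 1 lower gene of that list (5.31 and 0.246). Of the 8 genes listed for MuvB, B-Myb and FoxM1, which turn on G2 and mitosis genes through CHR elements, 4 were higher. These were *Mybl1* (0.710 and 13.0), which encodes A-Myb and not B-Myb, *Mybl2*, the gene of B-Myb (1.79 and 11.7), *Foxm1* and *Lin9* (22.2 and 51.8). The other MuvB genes *Lin37*, *Lin52*, *Lin54* and *Rbbp4* lay within 2-fold. The median of that list was 0.68, and *Foxm1* had 4.02 and 19.6.

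Most genes of the E2f target list and of the G2 and mitosis list were higher, and most p53 target genes lay within 2-fold. Whether E2f factors, FoxM1 or p53 control them in these cells was not tested. Of 24 E2f target genes of DNA replication, 21 were higher and 0 lower, with a median of 1.78. The highest differences were those of *Tyms* (7.67 in the pre-pro-B library and 58.6 in the pro-B library), which makes thymidylate, and *Rrm2* (36.1 and 219), a subunit of ribonucleotide reductase. Of 22 G2 and mitosis genes outside the 42, 21 were higher and 0 lower, with a median of 2.13, led by *Ube2c* (62.5 and 414) and *Bub1b* (26.3 and 172). The 22 include *Cdc20*, which is also counted among the 19 partners and regulators of the cell cycle Cdks. Of 21 p53 target genes outside the 42, 5 were higher and 2 lower, with a median of 0.38. *Rrm2b* (13.8 and 78.1) and *Gadd45a* (5.18 and 31.9) were the highest of these, and *Pmaip1* (53.1 and 8.07), the gene of the apoptosis factor Noxa, and *Perp* (4.11 and 0.0284) the lower pair.

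**Figure D5:**
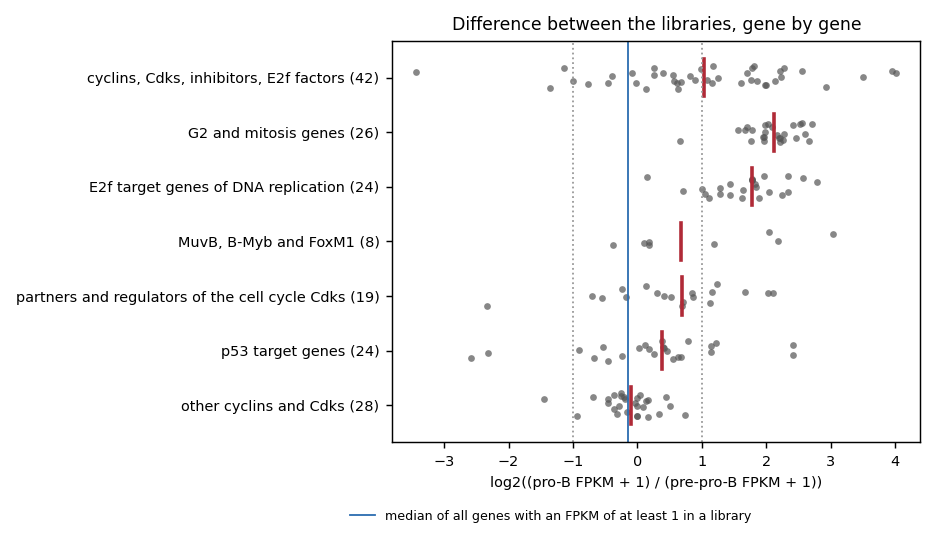
Log2 difference between pro-B and pre-pro-B cells of each gene (points, spread vertically for clarity) in the 42 genes and 6 lists, with the median of each (red bar), 2-fold limits (dotted) and the median of the 10528 expressed genes (blue line, -0.14). The medians of the G2 and mitosis list (2.13 with or without its 4 genes that are among the 42) and of the E2f target list (1.78) lie beyond 2-fold, and that of the other cyclins and Cdks (-0.10) lies next to the blue line.

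Markers of the cell types differed between the libraries as well. All 10 pro-B markers were higher in the pro-B library. Of the 9 pre-pro-B and progenitor markers 6 were lower and 1 higher. These 9 include *Il7r*, *Ptprc*, *Rag1* and *Dntt*, which are also known from pro-B cells. *Ptprc* (269 and 0.917) and *Dntt* (17.0 and 0.683) were among the 6 lower. *Rag1* (24.4 and 64.4) was the 1 higher, and *Il7r* (349 and 424) lay within 2-fold. Of 10 myeloid and 10 T and NK cell markers 4 and 7 were lower and 0 higher. The summed FPKM of the myeloid markers was 280 in the pre-pro-B library and 9.40 in the pro-B library. That of the T and NK cell markers was 473 and 6.02. *Fcgr3* (218 and 2.88) and *Klrd1* (353 and 2.89) made up most of these sums in the pre-pro-B library. The pre-pro-B library thus also held transcripts known from other blood lineages. Of the myeloid list 3 markers were listed at 0 in the pre-pro-B library and 7 in the pro-B library, and of the T and NK cell list 0 and 6. The 15 stromal markers, for the OP-9 cells, summed to 27.9 and 22.9, with 3 of them at 0 in each library. Of these 15, 4 were higher in the pro-B library and 2 lower, 11 had a positive sign and 2 a negative one, and the median log2 difference was 0.64. The lower pair, *Pdgfrb* (15.9 and 0.377) and *Thy1* (5.95 and 0, also on the T and NK cell list), made up most of the sum in the pre-pro-B library. The other 13 summed to 6.08 and 22.5. The pair was left out because it was highest in the pre-pro-B library, which by itself shifts the remaining sum towards the pro-B library. Of 7 erythroid and megakaryocyte markers 0 were called. The part of these cells in the differences was not tested. The targeted genes were not at 0 in their own null cells, with *Ebf1* at 64.0 in the pre-pro-B library and 273 in the pro-B library and *Rag2* at 34.5 and 22.9. An FPKM covers the whole transcript and does not show from which part of a gene the reads came.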

How the data were processed

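RNA was depleted of ribosomal RNA, made into strand-specific libraries and sequenced as about 90 M single-end reads of 97 bp each. The authors aligned the reads to mm9 with TopHat (1.5 in the submitters' processing notes) and estimated the deposited FPKM of each RefSeq transcript with Cuffdiff 2.1.1, with correction for multiply mapped reads and for fragment bias, each with a 95% interval. Another deposited table holds the authors' own comparison of the libraries (fold changes and p-values) and was not used, nor were its 2 columns of values per sample. FPKM carry no counts, so the fragments behind a value are only approximate.

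Of 30485 transcripts, 26968 rows were protein-coding (26580 accessions), and a RefSeq gene table named 26173 accessions. FPKM were summed per gene, giving 20250 genes. Counts over all genes used those that reached an FPKM of 1 in either library, with a pseudocount of 1. Counts over the 42 genes used all of them. The genes named were these 42 and up to 2 highest and 2 lowest genes of each list past 2-fold. Transcripts were named for a gene with any that moved against its sum, and for *Cdkn2a*. *Foxm1*, *Lin9*, *Mnat1*, *Il7r*, *Ptprc*, *Rag1*, *Dntt*, *Fcgr3*, *Klrd1*, *Pdgfrb* and *Thy1* were named after their values were seen. So were the transcripts of *Ccnd3*, *Ccne2*, *Rbl1* and *Cdc25b*. The members and lists were chosen with earlier results of these data known. Positions are from GENCODE on mm9, and promoter windows from RefSeq on GRCm38.p6, a later build used for sequence only. Python 3.11.15, numpy 2.4.6, pandas 2.3.3 and matplotlib 3.10.9 were used.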

Additional observations from a re-analysis of the deposited data

How the results depend on the processing

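Differences were recomputed under 12 alternatives: pseudocounts of 0.1 and 5, stricter or no filters on low values, scaling to TPM or by the median ratio, the most abundant transcript of each gene, status and duplicate rows left out, and limits of 1.5-fold and 3-fold. Of the 42 genes, none that was called higher or lower changed sign under these alternatives, and of those within 2-fold *Trp53* (median-ratio scaling and the most abundant transcript) and *Cdc25a* (median-ratio scaling) did. With a pseudocount of 5 the median of the 42 genes was 0.73, and over all genes 785 were higher and 996 lower. Among genes that reached an FPKM of 1 in each library, 998 were lower. Of the 42, 5 were lower at 1.5-fold and 1 at 3-fold. The lower counts with a higher pseudocount, filter or limit follow from how those settings are built. The median of all genes was -0.14, -0.23 with TPM scaling and -0.03 with median-ratio scaling, so each gene is best read against that shift. Calls also crossed 2-fold for *Rb1* with median-ratio scaling (1.01), for *Ccnd1* (-0.35) and *E2f1* (0.60) with a pseudocount of 5, and for *Cdkn2b* (2.31) and *Cdkn2d* (1.28), both under an FPKM of 1, with a pseudocount of 0.1. Of 411 values of single genes, 384 moved by less than 0.25 (log2) and 27 by more. Most of the 384 could not move further. Filters, status and duplicate rows leave the value of a member as it is. So does the most abundant transcript for genes with a single transcript, and scaling shifts all genes by a similar small amount. The 384 are therefore no measure of how firm the values are. No paired analysis was possible because each cell type has 1 library. For the same reason no replicate could be left out.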
